A study of Mus musculus with 4 samples.

Results

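The ligands BAFF (gene Tnfsf13b) and APRIL (gene Tnfsf13) and their receptors BAFF-R (Tnfrsf13c), TACI (Tnfrsf13b) and BCMA (Tnfrsf17) were followed across the immune cells of the mouse pancreas before diabetes. These 5 genes, 2 ligands and 3 receptors, were taken by symbol from the 31053 genes of the deposited matrices, and each had 1 matching entry. The study profiled leukocytes by 10x Genomics 5′ single-cell RNA sequencing in female mice in which both Ocab (Pou2af1) alleles were flanked by loxP sites. CD45+ cells of the pancreas came from 12 week-old mice, 4 per genotype, in 1 library of control Ocabfl/fl mice and 1 library of Ocabfl/fl.CD4-Cre mice. Pancreatic lymph node cells, enriched for CD3 with magnetic beads, came from 8 week-old mice, 5 per genotype, again in 1 library per genotype. All 4 libraries therefore carry the floxed allele, and the CD4-Cre libraries add a Cre driven by Cd4 regulatory elements, which is active from a thymic stage shared by CD4 and CD8 T cells. The labels used here name no strain.

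BAFF and APRIL are trimeric ligands of the tumour necrosis factor family, made largely by myeloid and stromal cells, and APRIL is cut by furin before it is secreted. BAFF-R binds BAFF alone and carries the survival signal of mature B cells through TRAF3 and the alternative NF-κB pathway. TACI binds both ligands and is found on marginal zone, activated and switched B cells, and BCMA sustains long-lived plasma cells. The balance between BAFF and its receptors is known to set how many autoreactive B cells survive.

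Cells were assigned to classes from the raw unique molecular identifiers (UMIs) of marker genes, none of them a ligand or receptor above. The gates kept 3540 control and 5691 CD4-Cre pancreas barcodes in 7 classes, of 4524 and 6963 barcodes in the files. B barcodes numbered 899 and 1312, T barcodes 2244 and 4038, neutrophils 134 and 75, monocytes 83 and 88, macrophages 82 and 50, and dendritic cells 83 and 99, in control and CD4-Cre respectively. The plasma gate was small, with 15 and 29 barcodes. Markers not used to gate their own class were checked, though 1 macrophage marker, Csf1r, was part of the monocyte gate. They were highest in their own class in both libraries for 4 of 4 T, 5 of 5 B and 4 of 4 macrophage genes. The same held for 3 of 4 monocyte, 3 of 4 neutrophil and 3 of 4 plasma genes. The dendritic gate met this for only 2 of 5 genes. The targeted gene Pou2af1 stood at 5.39 CPM (UMIs of the gene per 1000000 UMIs of the class) in control T barcodes and 0.597 CPM in CD4-Cre T barcodes. In B barcodes, which the Cre should not reach, it stood at 223 and 225 CPM. With 1 library per genotype there is no replicate, so every ratio below compares 2 libraries and no p-value is given. All intervals are 95% and cover counting error only, and fewer transcripts per cell cannot be told apart from fewer expressing cells within a gate.

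The stretch before the transcription start of each receptor gene is shown first, because the 3 receptors had 3 different cell patterns. Each run is the 250 bases before the RefSeq start in GRCm38.p6, the assembly of the mm10 build that the submitters name, 5′ to 3′ on the gene's own strand. Capitals mark letters found by a search, on both strands, for 4 motifs. These were the octamer ATGCAAAT bound by OCT factors and their co-activator OCA-B, the interferon response type GAAANNGAAA, and the TATA box, searched as TATAAA. The last was an ETS factor core, searched as GGAAGT.
Tnfrsf13c, chr15:82224381-82224630, minus strand: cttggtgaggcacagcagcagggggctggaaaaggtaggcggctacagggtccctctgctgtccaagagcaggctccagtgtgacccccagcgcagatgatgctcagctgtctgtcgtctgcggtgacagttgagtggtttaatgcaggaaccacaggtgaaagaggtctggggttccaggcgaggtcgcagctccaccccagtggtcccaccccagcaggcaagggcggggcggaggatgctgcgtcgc
Tnfrsf13b, chr11:61126505-61126754, plus strand: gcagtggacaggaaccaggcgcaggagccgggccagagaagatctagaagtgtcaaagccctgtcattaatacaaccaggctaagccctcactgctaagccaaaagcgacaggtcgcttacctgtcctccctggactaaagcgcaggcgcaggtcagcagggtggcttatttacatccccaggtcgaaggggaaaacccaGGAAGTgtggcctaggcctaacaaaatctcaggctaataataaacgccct
Tnfrsf17, chr16:11313559-11313808, plus strand: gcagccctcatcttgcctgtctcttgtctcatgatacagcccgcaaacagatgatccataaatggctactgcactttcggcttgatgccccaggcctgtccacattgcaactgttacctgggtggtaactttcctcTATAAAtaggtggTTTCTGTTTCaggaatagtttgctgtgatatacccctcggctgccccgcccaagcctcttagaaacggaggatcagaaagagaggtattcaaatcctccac
The octamer letters were in none of the windows of the 5 genes, and 1.60% of the 32851 promoter windows in the RefSeq table held them. The Tnfrsf17 window held TATAAA with its first base 114 bases before the start, and the reverse complement of GAAANNGAAA (TTTCTGTTTC) 101 bases before it. Those letters were in 12.4% and 2.98% of all windows. The Tnfrsf13b window held GGAAGT, as did 19.7% of all windows, and the Tnfrsf13c window held none of the 4 motifs. Of the ligands, Tnfsf13 had no match, and Tnfsf13b had 1 in the window of the second of its RefSeq starts.
Tnfsf13b, chr8:10006607-10006632, plus strand: tacaaaaactGAAAGTGAAAtgcgga
This match to GAAANNGAAA began 16 bases before that start. A match describes letters in these windows and is not a measured binding site.

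By the GENCODE annotation of GRCm38, all 5 are protein-coding genes. Tnfsf13b (ENSMUSG00000031497) spans chr8:10006467-10039072, Tnfrsf13b (ENSMUSG00000010142) chr11:61126755-61149372, Tnfrsf13c (ENSMUSG00000068105) chr15:82221743-82224369 and Tnfrsf17 (ENSMUSG00000022496) chr16:11313812-11320074. Tnfsf13 (ENSMUSG00000089669) lies at chr11:69682846-69685784, inside the same-strand read-through gene Tnfsfm13, which joins it to its neighbour Tnfsf12. Reads shared by these genes may have been split or dropped in counting, so the Tnfsf13 levels are uncertain by that amount.

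BAFF transcripts were found in neutrophils and macrophages. In neutrophils, Tnfsf13b stood at 53.6 CPM (33.2 to 81.9; 21 UMIs) in the control library and 82.2 CPM (43.8 to 141; 13 UMIs) in the CD4-Cre library. In macrophages it stood at 45.5 CPM (31.5 to 63.6; 34 UMIs) and 44.8 CPM (27.0 to 70.0; 19 UMIs). The order of these 2 classes was the same in both libraries, but their intervals overlapped. Monocytes came next, at 14.7 CPM (9 UMIs) and 8.79 CPM (7 UMIs), below the macrophage interval in both libraries. Dendritic cells held 4.18 and 3.07 CPM, T barcodes 1.76 and 1.67 CPM, and B barcodes 1.35 and 0.393 CPM. No Tnfsf13b UMI was found in the plasma gate. The interval from monocytes to dendritic cells to T to B barcodes overlapped at each step, so the order of neighbouring classes there is not resolved. The monocyte interval (6.72 to 27.9 in control, 3.53 to 18.1 in CD4-Cre) did lie above those of T and B barcodes in both libraries. The T intervals were 1.01 to 2.86 and 1.11 to 2.42 CPM, and the B intervals reached up to 3.15 and 1.42 CPM.

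Between the libraries the BAFF gene had no ratio whose interval left 0. The log2 ratio, positive where CD4-Cre was higher, was 0.62 (-0.50 to 1.68) in neutrophils, -0.02 (-0.91 to 0.83) in macrophages and -0.74 (-2.40 to 0.85) in monocytes. None of these 3 was past 2-fold by summed UMIs, where 8.72% of the genes tested in neutrophils and 7.61% of those in macrophages were. These intervals leave room for a change of more than 2-fold in neutrophils and monocytes, so the depth cannot show that the level was alike. With equal weight per barcode, the monocyte value became -1.69.

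APRIL transcripts marked monocytes and macrophages and were not detected in neutrophils. Tnfsf13 stood at 131 CPM (104 to 163; 80 UMIs) in control monocytes and 117 CPM (94.2 to 143; 93 UMIs) in CD4-Cre monocytes. Macrophages held 100.3 CPM (78.9 to 126; 75 UMIs) and 80.2 CPM (55.6 to 112; 34 UMIs), and the intervals of the 2 classes overlapped in each library. In neutrophils no Tnfsf13 UMI was found among 392038 and 158091 UMIs, which allows up to 9.41 and 23.3 CPM. The ligands were thus divided among the myeloid classes: neutrophils held BAFF UMIs alone, monocytes mostly APRIL UMIs, and macrophages both. Of the macrophage barcodes, 10 control and 6 CD4-Cre barcodes held UMIs of both ligands. Within monocytes, barcodes led by Ace and Ear2, genes of the patrolling kind, held 128 and 123 CPM of Tnfsf13, and barcodes led by Ly6c2 and Chil3, genes of the classical kind, 113 and 111 CPM. That difference lay within counting error in both libraries (log2 0.18, -0.62 to 1.05, and 0.16, -0.50 to 0.84).

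For Tnfsf13 the log2 ratio between the libraries was -0.16 (-0.61 to 0.29) in monocytes and -0.32 (-0.95 to 0.28) in macrophages. Both intervals included 0, and neither reached down to -1, a 2-fold lower level. Dendritic cells were the exception in detection: no UMI in the control library, which allows up to 3.08 CPM, against 7 UMIs in 5 barcodes of the CD4-Cre library (5.38 CPM, 2.16 to 11.1). All 7 UMIs came from the type 2 dendritic subset, a set of 25 barcodes in each library. Its barcodes held at least 2 UMIs summed over Cd209a, Clec10a and Mgl2, not UMIs of every one of them. Clec10a was higher in another class than in the dendritic gate in both libraries, and whether these 7 UMIs came from other myeloid cells was not tested. T barcodes held 1 and 9 UMIs and B barcodes 0 and 2 UMIs. The read-through gene Tnfsfm13 stood at 4.90 CPM (3 UMIs) and 18.8 CPM (15 UMIs) in monocytes and 30.8 and 28.3 CPM in macrophages. From these few monocyte UMIs its log2 ratio was 1.94 (0.12 to 4.37), opposite in sign to that of Tnfsf13. NK barcodes held 18.4 CPM (12 UMIs) and 16.2 CPM (15 UMIs) of Tnfsfm13, with 1 and 0 UMIs of Tnfsf13.

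Furin, the protease that releases APRIL, was highest in control and CD4-Cre neutrophils, where no APRIL UMI was found. Its level was 145 CPM in neutrophils of both libraries and 42.8 and 37.8 CPM in macrophages. In monocytes it was 119 CPM in the control library and 51.5 CPM in the CD4-Cre library, a log2 difference of -1.21 (-1.80 to -0.64), past 2-fold as 5.17% of the genes tested there were. In T barcodes it was 19.9 and 13.8 CPM, a log2 difference of -0.53 (-0.82 to -0.24). NK barcodes held 33.8 and 26.9 CPM and dendritic cells 22.6 and 19.98 CPM.

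**Figure D1:**
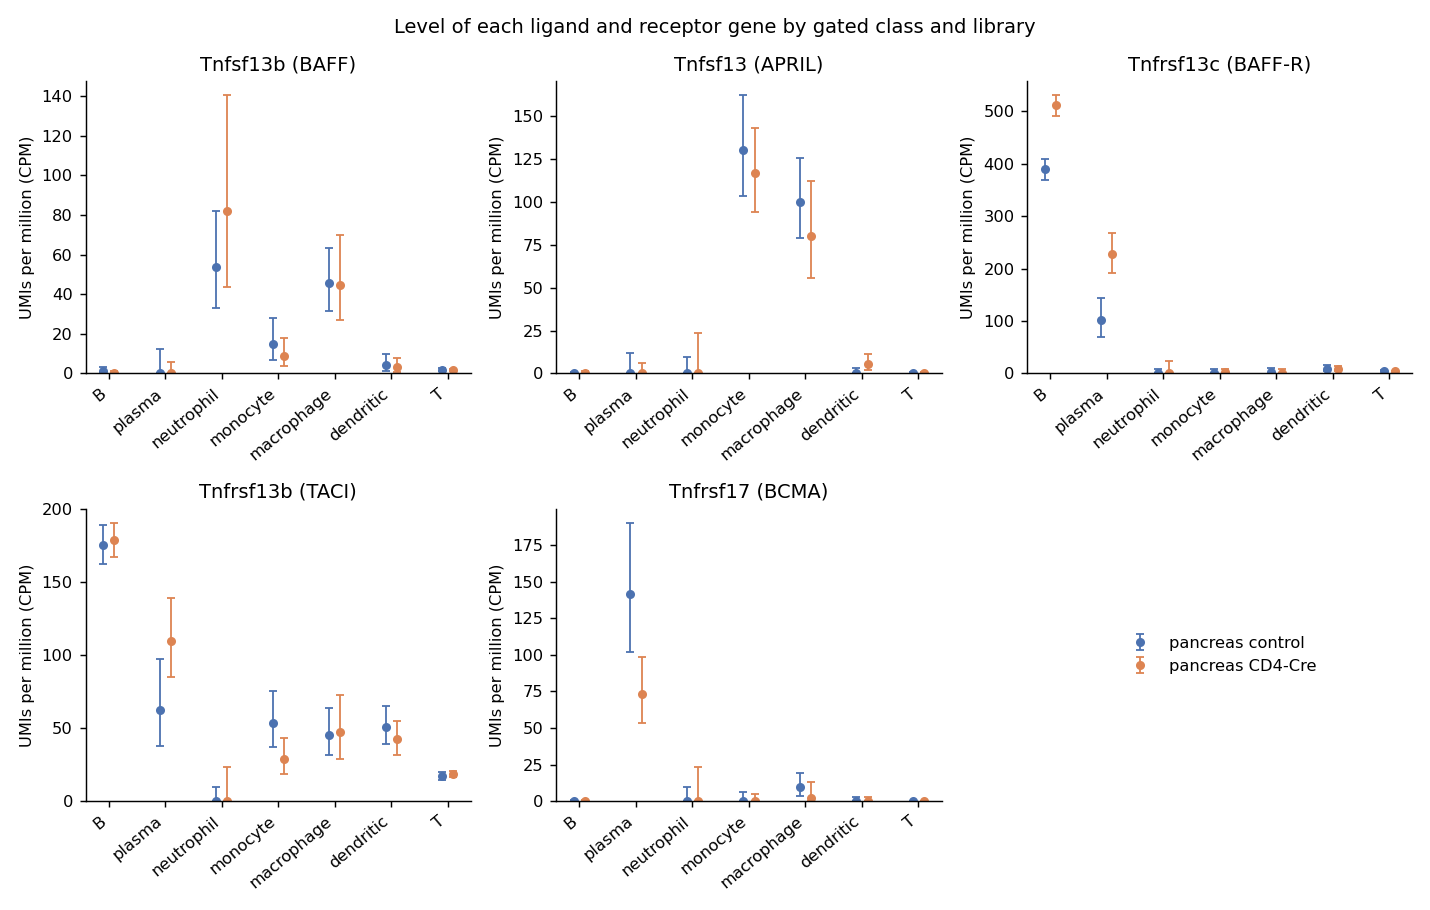
Level of each gene (CPM, linear axis from 0) in 7 gated classes of the pancreas control (blue) and CD4-Cre (orange) libraries; bars are 95% Poisson intervals. BAFF is highest in neutrophils and macrophages, APRIL in monocytes and macrophages, BAFF-R in B barcodes, TACI in B barcodes with lower levels in the plasma gate, myeloid and T barcodes, and BCMA in the plasma gate.

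BAFF-R was a B cell gene in both libraries, and it was higher in the CD4-Cre library. Tnfrsf13c stood at 389 CPM (369 to 409.6; 1439 UMIs) in control B barcodes and 511 CPM (492 to 531; 2604 UMIs) in CD4-Cre B barcodes. The ratio was 1.31-fold, or 0.39 on the log2 scale (0.30 to 0.49), and the intervals of the 2 libraries did not overlap. Among the 2389 genes with at least 500 UMIs in B barcodes over both libraries, 12.4% (297 genes, Tnfrsf13c among them) were more than 1.2-fold higher in CD4-Cre and 3.1% more than 1.2-fold lower. It was not past 2-fold, where 2.6% of 9899 genes were. A UMI of the gene was seen in 72.6% of control and 76.7% of CD4-Cre B barcodes at a median depth of 3554 and 3382 UMIs. After each barcode was thinned to 1000 UMIs, the shares were 33.1% (30.03 to 36.3) and 40.7% (38.0 to 43.4), with 5 and 6 shallower barcodes left out. T barcodes, thinned alike from a median of 3459 and 3566.5 UMIs, gave 0.537% and 0.348%. The difference thus appeared in the share of barcodes as well as in the summed level. No replicate library shows how far 2 libraries of the same genotype would differ.

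Within B barcodes the difference was seen in each large subset. It was 0.37 on the log2 scale in barcodes with Fcer2a and no Cr2 (399 and 516 CPM), the follicular pattern, and 0.36 in barcodes with Cr2 (425 and 546 CPM). Barcodes with neither gene were lower in both libraries, at 324 and 454 CPM, with a log2 ratio of 0.49 (0.29 to 0.69). Against the Fcer2a-only barcodes of their own library, they were lower by a log2 difference of -0.30 (control; -0.51 to -0.10) and -0.19 (CD4-Cre; -0.33 to -0.04). Class-switched barcodes, with at least 5 UMIs of IgG or IgA constant genes and no Ighd, held 361 and 365 CPM in only 20 and 17 barcodes. Their log2 ratio of 0.02 had an interval of -0.69 to 0.71, which includes the ratio of the Ighd barcodes (408 and 545 CPM, 0.42). Barcodes with germinal-centre genes were too few to compare, 11 and 4.

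Outside the B lineage Tnfrsf13c was low but not even. T barcodes held 5.17 CPM (47 UMIs) and 4.48 CPM (75 UMIs), NK barcodes 15.4 and 24.8 CPM, dendritic cells 8.36 and 8.45 CPM, and neutrophils no UMI in either library. Cd79a, a B cell receptor subunit that should be absent from T cells, stood at 4327 and 4600 CPM in B barcodes and at 3.30 and 2.21 CPM in T barcodes. Per Cd79a UMI, B barcodes held 0.0899 and 0.111 Tnfrsf13c UMIs and T barcodes 1.57 and 2.03. Cd79a is also a marker of the B gate, and the 108 and 185 barcodes that met the B and T gates alone were left out. This gating by itself keeps Cd79a low in T barcodes and can raise their values per Cd79a UMI. The part of B cell RNA in the T level was not tested. CD8 T barcodes were above CD4 T barcodes in all 4 libraries: 8.18 against 4.29 CPM (control) and 7.18 against 3.18 CPM (CD4-Cre) in pancreas, and 6.55 against 1.10 CPM and 5.56 against 1.57 CPM in lymph node. The log2 interval left 0 in 3 of these libraries and included it in the pancreas control (0.93, -0.16 to 2.03). CD8 barcodes were also deeper than CD4 barcodes, at 3852 against 3472.5 UMIs in the median in the pancreas control library, and the part of depth was not tested. The 41 B barcodes of the control lymph node library held 607 CPM (117 UMIs) of Tnfrsf13c.

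TACI had the widest distribution of the receptors. In B barcodes Tnfrsf13b stood at 175 CPM (162 to 189; 649 UMIs) in control and 179 CPM (167 to 191; 911 UMIs) in CD4-Cre, a log2 difference of 0.03 (-0.12 to 0.17). This interval leaves out a change of the size seen for Tnfrsf13c in the same barcodes. The thinned shares were 16.9% and 17.4%, against none of 131 and 73 thinned neutrophils, whose Clopper-Pearson upper limits are 2.78% and 4.93% of barcodes with a UMI. UMIs of both receptors were found together in 319 of 899 control and 471 of 1312 CD4-Cre B barcodes, and TACI without BAFF-R in 99 and 126. Switched B barcodes held 246 and 297 CPM, against 173 and 166 CPM in Ighd barcodes. The log2 difference was 0.51 (control; -0.07 to 1.05) and 0.84 (CD4-Cre; 0.21 to 1.40), so it passed counting error in 1 of the 2 libraries.

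Myeloid and dendritic cells also held TACI transcripts. Monocytes stood at 53.9 CPM (37.1 to 75.7; 33 UMIs) in control and 28.9 CPM (18.3 to 43.3; 23 UMIs) in CD4-Cre. Their log2 difference was -0.90 (-1.73 to -0.09), short of 2-fold. It was -0.79 (-1.69 to 0.07) with the gate minimums doubled. Without the deepest 5% of barcodes it was -1.06 and with equal weight per barcode -1.46, both past 2-fold. The share of monocytes with a UMI was 2.44% (control) and 2.27% (CD4-Cre) after thinning to 1000 UMIs, with 2 barcodes in each. It was 6.49% and 6.90% after thinning to 2000 UMIs, with 5 and 6 barcodes. These are too few barcodes to resolve a difference of this size. Without thinning the share was 33.7% (control; 23.7 to 44.9) and 21.6% (CD4-Cre; 13.5 to 31.6), at median depths of 6439 and 6863 UMIs. Macrophages held 45.5 and 47.2 CPM and dendritic cells 51.0 and 42.3 CPM, and the intervals of these classes and monocytes overlapped in both libraries. Cd79a had 1 and 4 UMIs in monocytes (1.63 and 5.02 CPM), 3 and 0 UMIs in macrophages and 1 and 0 UMIs in dendritic cells. Barcodes of these classes that also met the B gate, which uses Cd79a, were left out. The part of B cell RNA in the TACI level was not tested. Dendritic cells with the maturation genes Fscn1, Ccr7 and Ccl22 held 43.8 CPM (19 UMIs in 31 barcodes) in control and 8.49 CPM (3 UMIs in 29 barcodes) in CD4-Cre. Their log2 ratio was -2.37 (-4.77 to -0.60), past 2-fold as were 9.63% of the 4217 genes with at least 20 UMIs in this subset and 5.02% of those in all dendritic cells. The cross-presenting type 1 subset held 45.6 and 53.8 CPM and the type 2 subset 52.5 and 48.6 CPM, with log2 intervals that included 0. Neutrophils held no UMI of the gene in either library.

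In T barcodes TACI was low, and it was highest in those with Foxp3, the regulatory T cell factor. All T barcodes held 17.0 CPM (154 UMIs) in pancreas control and 18.8 CPM (315 UMIs) in pancreas CD4-Cre, with a log2 difference of 0.15 (-0.13 to 0.44), short of 2-fold, which 2.67% of the genes tested in T barcodes passed. The lymph node libraries held 29.5 CPM (417 UMIs) and 26.0 CPM (700 UMIs). Foxp3 barcodes were taken whether or not they held Cd4 UMIs, and the CD4 barcodes set against them held Cd4 and no CD8 gene UMI. The 2 sets were thus not selected alike. Foxp3 barcodes held 36.2 CPM in pancreas control, against 17.7 CPM in CD4 barcodes without Foxp3 (2.04-fold). The other libraries gave 46.9 against 20.6 CPM (2.28-fold) for pancreas CD4-Cre, 67.7 against 29.8 CPM (2.27-fold) for the control lymph node and 48.4 against 27.4 CPM (1.77-fold) for its CD4-Cre counterpart. The log2 interval left 0 in 4 of 4 libraries, and the median depth of Foxp3 barcodes was above that of the others in 2 of them. CD8 barcodes were below CD4 barcodes for TACI in all 4 libraries, with log2 differences of -0.96 (control) and -0.62 (CD4-Cre) in pancreas and -0.69 and -0.57 in lymph node. For Tnfrsf13c in pancreas, Foxp3 barcodes stood at 10.1 against 4.18 CPM of CD4 barcodes without Foxp3 (control) and 10.0 against 2.83 CPM (CD4-Cre). In lymph node the values were 3.12 against 0.693 CPM (control) and 3.38 against 1.29 CPM (CD4-Cre). With 3 to 12 UMIs in the Foxp3 barcodes, the log2 interval left 0 only in pancreas CD4-Cre (1.83, 0.67 to 2.92).

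**Figure D2:**
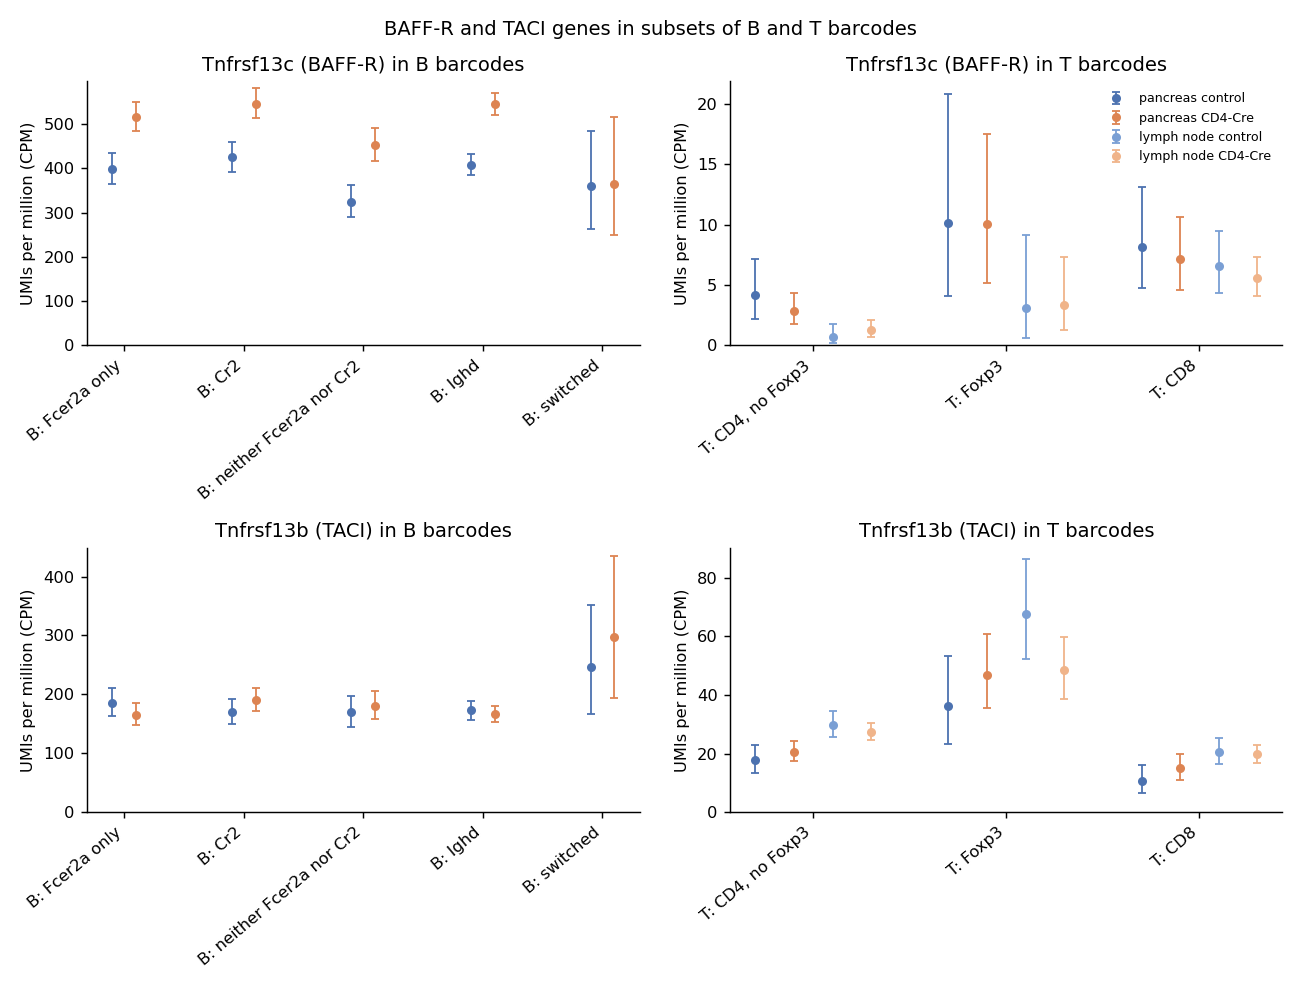
Levels (CPM) of Tnfrsf13c and Tnfrsf13b in subsets of B barcodes of the pancreas (left) and of T barcodes of all 4 libraries (right); bars are 95% Poisson intervals. Tnfrsf13c is higher in CD4-Cre (orange) in the large B subsets. Tnfrsf13b is higher in Foxp3 T barcodes, with or without Cd4, than in CD4 T barcodes without Foxp3 of each library.

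The mix of receptor transcripts differed between B barcodes and the myeloid, dendritic and T barcodes. Of the UMIs of TACI and BAFF-R together, TACI made up 31.1% (29.1 to 33.1) in control B barcodes and 25.9% (24.5 to 27.4) in CD4-Cre B barcodes. It made up 76.6% and 80.8% in T barcodes, 85.9% and 83.3% in dendritic cells, 97.1% and 92.0% in monocytes and 94.4% and 100% in macrophages. The intervals of T and dendritic barcodes overlapped. The plasma gate, at 38% (24.7 to 52.8) and 32.5% (26.2 to 39.4), and NK barcodes, at 16.7% (2.09 to 48.4) and 25.8% (11.9 to 44.6), overlapped B barcodes. Capture of the 2 transcripts may differ, so the percentages are read between classes and not as protein ratios.

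Among gated barcodes, BCMA transcripts were found in the plasma gate and, as a few UMIs, in macrophages. The plasma gate held 2 kinds of barcode. Jchain, the joining chain of secreted IgM and IgA, left a gap between 20 and 300 UMIs per barcode in control and between 40 and 368 in CD4-Cre. Above the gap were 9 control and 13 CD4-Cre barcodes, all with Derl3, a gene of the secretory pathway, and most with Sdc1 (8 and 11). Below it were 6 and 16 barcodes, every one with the B cell gene Ms4a1, none with Sdc1, and nearly all with the division gene Mki67 (6 and 15). The 2 kinds were not wholly apart in these genes. Derl3 was in 2 and 1 of the barcodes below the gap. Above it, 3 and 5 barcodes held Ms4a1, 4 and 3 held Mki67, and only 5 and 8 held the plasma marker Prdm1. The second kind goes against the label of the gate. It made up 40% of the gate in control and 55.2% in CD4-Cre, so sums over the gate mix a different proportion in each library. The split at 100 Jchain UMIs was chosen after the values were seen.

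All Tnfrsf17 UMIs of the gate came from the barcodes with high Jchain. There, 5 of 9 control barcodes held 43 UMIs and 8 of 13 CD4-Cre barcodes held 45 UMIs, from 1 to 17 in a barcode, and the low-Jchain barcodes held none. Over the whole gate the level was 141 CPM (102 to 190.4) in control and 73.6 CPM (53.7 to 98.4) in CD4-Cre, a log2 difference of -0.94 (-1.58 to -0.30). Within the high-Jchain barcodes it was 194 and 147 CPM, a log2 difference of -0.40 (-1.04 to 0.23), whose interval includes 0. Every barcode with Tnfrsf17 also held Tnfrsf13b (5 of 5 and 8 of 8), as did 8 of 9 and 11 of 13 of all high-Jchain barcodes. In B and T barcodes no Tnfrsf17 UMI was found, with upper bounds of 0.997 and 0.724 CPM in B and 0.406 and 0.220 CPM in T barcodes. Macrophages held 7 UMIs in the control library (9.36 CPM, 3.76 to 19.3), 1 in each of 7 barcodes, and 1 UMI in CD4-Cre. Jchain, at 34362 CPM in the control plasma gate, had 1 UMI in those control macrophages. The 38 control barcodes that met both the monocyte and the macrophage gate, left out of the classes, held another 6 Tnfrsf17 UMIs (15.7 CPM). More were in left-out barcodes of the plasma and T gates: 21 UMIs in 4 control barcodes (241 CPM) and 13 UMIs in 5 CD4-Cre barcodes (120 CPM). In control, 1 left-out barcode of the plasma and NK gates held 4 UMIs. The levels and ratios of the plasma gate above do not include these UMIs.

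The other receptors of the plasma gate followed other patterns: Tnfrsf13c was highest in low-Jchain barcodes, and Tnfrsf13b was present in both kinds in CD4-Cre. Tnfrsf13c over the whole gate was 102 CPM (31 UMIs) in control and 227 CPM (139 UMIs) in CD4-Cre, a log2 difference of 1.16 (0.59 to 1.77). It was past 2-fold, as were 17.3% of the 4119 genes tested in this gate and 14% in the higher direction. The median log2 ratio of all those genes was 0.25, and scaling by edgeR's trimmed mean of M-values (TMM) shifted every ratio of the gate by -0.17. In low-Jchain barcodes it was 316 and 423 CPM, near the level of B barcodes, with a log2 ratio of 0.42 (-0.19 to 1.09). In high-Jchain barcodes it was 22.5 CPM (5 UMIs) and 32.6 CPM (10 UMIs), a log2 difference of 0.53 (-1.15 to 2.43). Both intervals included 0. Other splits of the gate gave other values: 0.96 (0.36 to 1.60) in barcodes with Ms4a1, 1.01 (0.03 to 2.17) in those with neither Sdc1 nor Derl3, and -0.50 (-1.45 to 0.44) in those with either. Tnfrsf13b over the gate was 62.5 CPM (19 UMIs) and 110 CPM (67 UMIs), a log2 difference of 0.81 (0.06 to 1.63), or 0.64 (-0.11 to 1.46) with TMM scaling. In high-Jchain barcodes it was 81.2 and 114 CPM (0.49, -0.37 to 1.40), and in low-Jchain barcodes 1 UMI was found in control and 32 UMIs (105 CPM) in CD4-Cre.

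**Figure D3:**
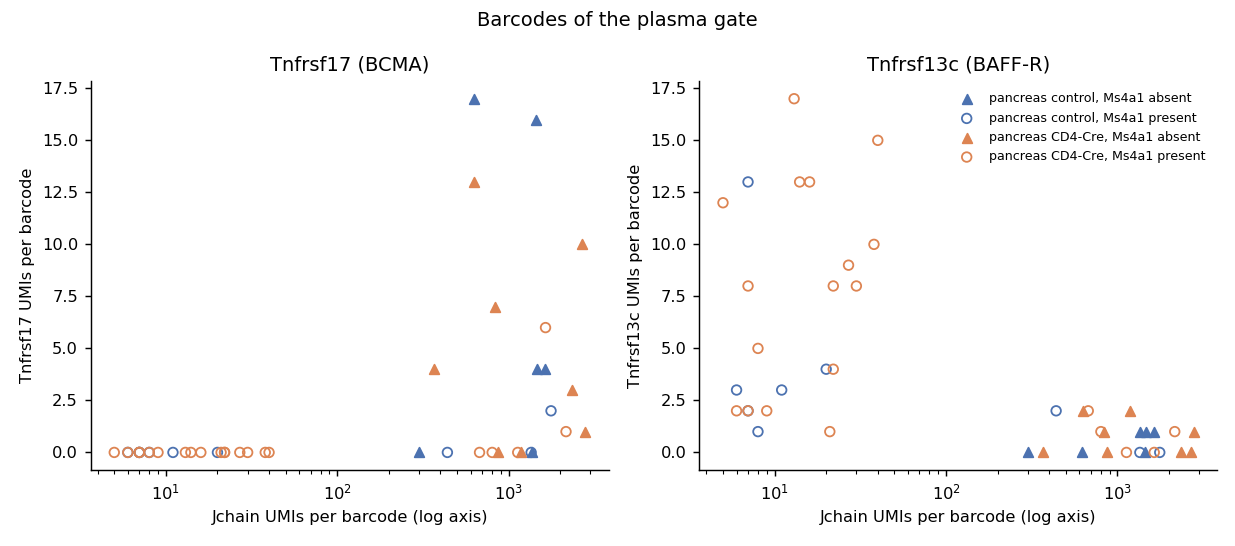
UMIs of Tnfrsf17 (left) and Tnfrsf13c (right) in each barcode of the plasma gate against its Jchain UMIs (log axis); filled triangles hold no Ms4a1 UMI and open circles hold at least 1. Tnfrsf17 appears only at high Jchain, and Tnfrsf13c is highest in the low-Jchain barcodes with Ms4a1.

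**Figure D4:**
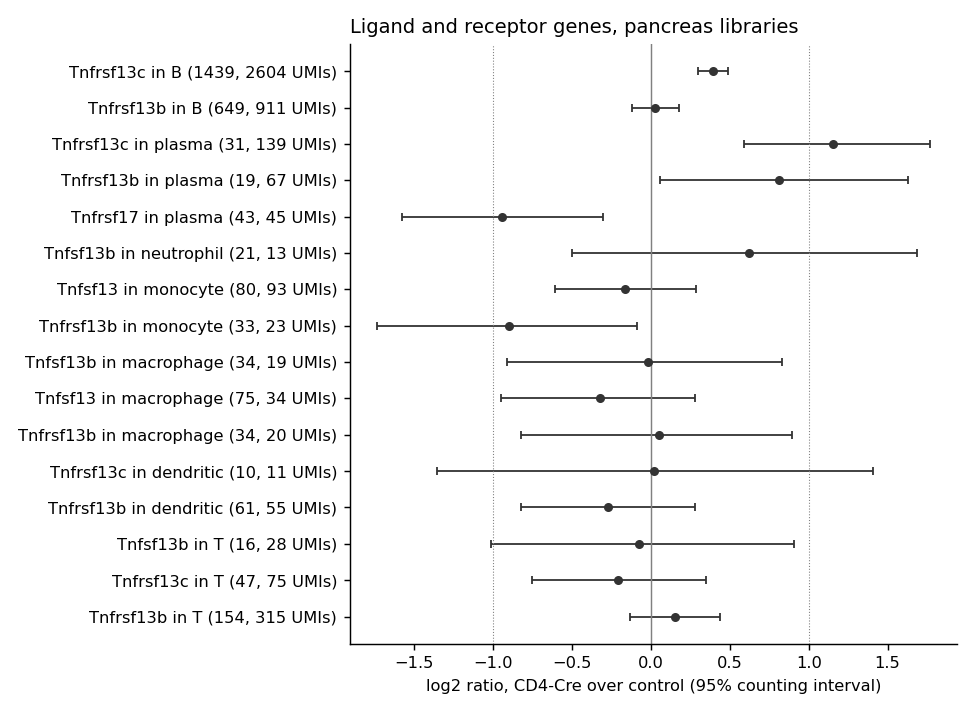
Log2 ratio (CD4-Cre over control), with its 95% counting interval, for each gene and class with at least 20 UMIs over both pancreas libraries; dotted lines mark 2-fold, and the UMIs of control and CD4-Cre stand in parentheses. The narrowest interval away from 0 is that of Tnfrsf13c in B barcodes, and the plasma gate gives ratios on both sides of 0.

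A list of 25 genes of BAFF-R signalling and B cell survival lay, by its median, close to other genes in B barcodes. Not all of them act after the receptor, since the list also held surface molecule genes such as Cd40 and Ms4a1. All 25 genes of the list were measured with at least 20 UMIs, and none was past 2-fold, where 2.6% of the 9899 genes tested were. The median ratio was 0.08, against 0.06 over all 9899 genes tested, so by its median the list lay where other genes did. Of the 25 ratios, 19 were above 0. The share of all genes in B barcodes above 0, or with an interval that left 0, was not computed. The intervals below therefore do not set the list apart from other genes. The highest ratio was that of Bcl2l11, the pro-apoptotic factor BIM that BAFF signalling restrains, at 0.44 (0.01 to 0.87; 19.7 and 26.7 CPM). Next came Nfkbie and Relb. Nfkbie, an inhibitor of NF-κB, was at 0.41 (0.18 to 0.64; 66.5 and 88.1 CPM) and Relb, the partner of p52 in the alternative pathway, at 0.38 (0.16 to 0.61; 70.3 and 91.7 CPM). Traf2, an adaptor of the same receptors, was at 0.34 (0.02 to 0.67), and Ikbkb, a kinase of the classical NF-κB pathway, at 0.27 (0.09 to 0.45). Fcer2a, which encodes CD23, was at 0.26 (0.17 to 0.36; 391 and 468 CPM). Nfkb2, the precursor of p52, was at 0.22 (0.03 to 0.41), and Nfkbia, another NF-κB inhibitor, at 0.15 (0.06 to 0.25). Traf3, which holds the alternative pathway in check, Map3k14, its kinase NIK, and Chuk, the kinase below NIK, were at 0.06, 0.12 and 0.06 with intervals that included 0. The lowest ratio was that of Pim1, a survival kinase, at -0.45 (-0.62 to -0.29; 160 and 117 CPM), followed among intervals that left 0 by Mcl1, an anti-apoptotic factor, at -0.24 (-0.37 to -0.10). Ms4a1, at 0.17 (0.11 to 0.24), belongs to the list but was used in the B gate.

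**Figure D5:**
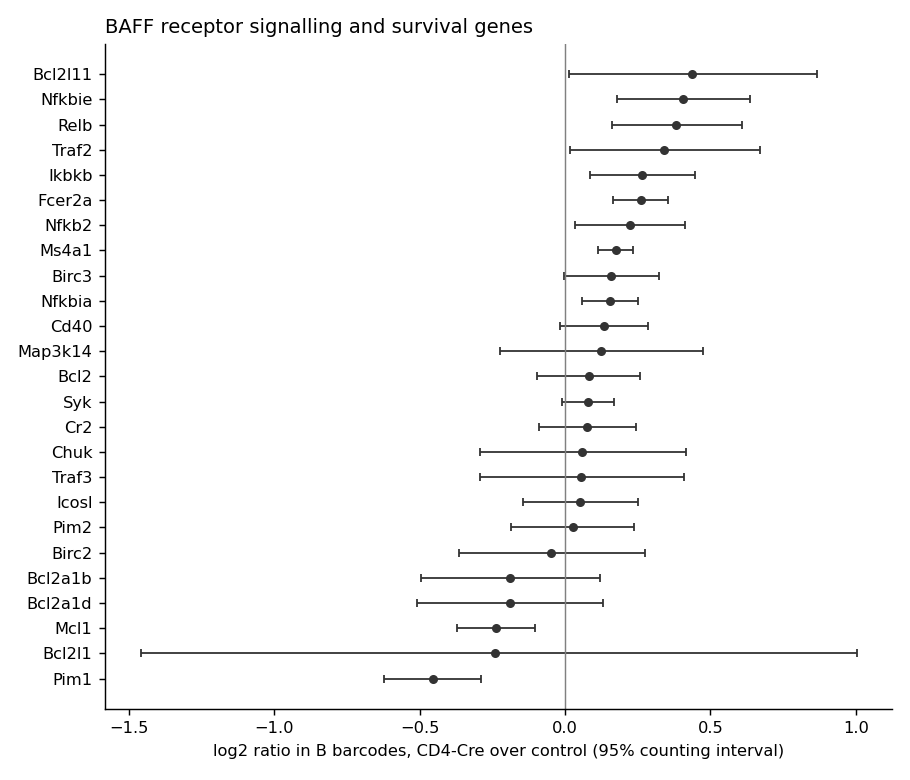
Log2 ratio (CD4-Cre over control) in pancreas B barcodes for 25 BAFF receptor signalling and survival genes, with 95% counting intervals. The points lie between Pim1 at -0.45 and Bcl2l11 at 0.44, on both sides of 0.

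Among other ligands of the family, Cd40lg, the helper ligand for CD40 on B cells, stood at 109.8 and 117 CPM in T barcodes. The other 6 classes held none of its UMIs in control and, in CD4-Cre, 1 in B barcodes, 2 in neutrophils and 1 in monocytes. Tnfsf12 (TWEAK), the neighbour of Tnfsf13, stood at 13.1 and 8.79 CPM in monocytes and 16.1 and 26.0 CPM in macrophages, the classes highest in APRIL. NK barcodes, with 1 and 0 APRIL UMIs, held 9.22 CPM (6 UMIs) and 3.23 CPM (3 UMIs) of it.

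The genes whose levels ordered the 7 classes of both libraries most like each gene were found by Spearman correlation over 14 levels, which share libraries and class depth and carry no p-value. For Tnfsf13b these were Klf6 (0.99), Mapk14, Picalm, C3 and Cpd, all highest in neutrophils of both libraries. For Tnfrsf13c they were Dnajc7 (0.97), Spib, Slc9a7, Fcrla and Fchsd2, highest in B barcodes. Spib, a B lineage transcription factor, stood at 213 and 232 CPM in B barcodes, against 0.330 and 0.657 CPM in T barcodes. For Tnfrsf13b they were Cd180 (0.94), a Toll-like receptor relative of B and myeloid cells, then Swap70, Sh2b2, Gga2 and Pkig. For Tnfsf13 they were Rpusd4 (0.94), Coa3, Cdk10, Ecm1 and Dscr3, of which Ecm1 had its highest level in monocytes, at 333 and 310.1 CPM. For Tnfrsf17, which was 0 in most classes, the coefficients were lower, from Pon3 (0.80) through Fkbp2, Lrrc59 and Dscc1 to Prdx4 (0.79), all highest in the plasma gate. These lists depend on the measure: with Pearson correlation of log2(CPM + 1), the 5 leading genes shared 1 name with the Spearman list for Tnfrsf13c and none for the other 4. With a minimum of 20 UMIs in place of 100, all 5 names were shared for Tnfsf13b, Tnfrsf13c and Tnfrsf13b, 2 for Tnfsf13 and none for Tnfrsf17.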

How the data were processed

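Per the submitters' processing notes, reads were processed with Cell Ranger against mm10, and the matrix headers name software version 3.0.0. The deposited values are whole-number UMI counts per gene and barcode. Barcodes with at least 500 genes and at most 10% mitochondrial UMIs were kept (4168 control and 6626 CD4-Cre in pancreas). They were gated on raw marker UMIs: T (Cd3d, Cd3e, Cd3g), B (Cd79a, Cd79b, Ms4a1 and another), plasma (Jchain, Mzb1), neutrophil (S100a8, S100a9 with Csf3r and others), macrophage (C1qa, C1qb, C1qc), monocyte (Ace, Ear2, Ly6c2, Chil3 and others with Lyz2 and Csf1r), dendritic (Flt3, Zbtb46, Xcr1, Ccr7 and others with MHC class II) and NK. No doublet caller was run. Barcodes that met more than 1 gate (246 and 431) were left out. The pancreas libraries held 20807342 and 32798133 UMIs, with a median of 3655.5 and 3680 per kept barcode, and shared 46 barcode sequences. UMIs were summed per class and library and divided by the class total (CPM). Intervals are exact Poisson, binomial (ratios) and Clopper-Pearson (shares), computed with SciPy 1.17.1 and tested on simulated data. A count of 0 was given its upper Poisson bound, and the gene ratios given in the text were not computed against it. For the shares past 2-fold and the medians over all genes, 3 counts were put in place of a count of 0. Alternatives used edgeR 4.0.16 and DESeq2 1.42.0 for scaling only. The genes, lists and gates were chosen with earlier results of these data known. The text names the 5 genes, the 5 genes most like each, and from the signalling list those past 2-fold or else the highest and lowest; other list members were chosen after their values were seen. One gene of the signalling list is not reported here.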

Additional observations from a re-analysis of the deposited data

Results flagged for a closer look

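Tnfrsf13b was set apart because its ratio of CD4-Cre over control left 0 in opposite directions in 2 classes. The log2 ratio was 0.81 in the plasma gate (62.5 and 110 CPM) and -0.90 in monocytes (53.9 and 28.9 CPM). The plasma value was 0.64 (-0.11 to 1.46) with TMM scaling and 0.49 (-0.37 to 1.40) in high-Jchain barcodes alone, and the monocyte value -0.79 (-1.69 to 0.07) with the gate minimums doubled, so neither call held throughout. The difference between the classes was not tested, since each rests on 1 library per genotype. The proportion of low-Jchain barcodes in the plasma gate differed between the libraries (40% and 55.2%).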

How the results depend on the processing

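The 146 recomputed ratios kept their sign but for 8. Of these, 4 were Tnfrsf13b in B barcodes and 3 Tnfsf13b in macrophages, both near 0. The eighth was Tnfrsf13c in the plasma gate, which reversed to -0.50 with only barcodes that held Sdc1 or Derl3. It was 0.48 without and 0.96 with only Ms4a1 barcodes, 0.53 above and 0.42 under 100 Jchain UMIs. Tnfrsf13b in the gate was 3.11 under 100 Jchain UMIs, where the control library had 1 UMI, and Tnfrsf17 was -0.30 with Sdc1 or Derl3 barcodes. TMM scaling shifted neutrophil ratios by -0.15. These plasma subsets were chosen after seeing the data. Tnfrsf13c in B barcodes ranged from 0.34 to 0.39. Its level in control and CD4-Cre was 412 and 539 CPM without the deepest 5% of barcodes, 353.5 and 449 CPM with barcodes of 2 gates kept (Tnfrsf13b then 162 CPM in CD4-Cre), and 418 and 540.0 CPM with equal weight per barcode, where Tnfsf13 in control monocytes was 173 CPM. Without immunoglobulin and mitochondrial genes in the total, CD4-Cre Tnfrsf13c in B barcodes was 535 CPM, and Tnfrsf17 in the plasma gate 227 and 106 CPM. The cause of the other shifts was not tested. Low UMI numbers limit Tnfsf13b (13 to 34 UMIs in neutrophils and macrophages) and the plasma gate. No paired analysis was possible because each group is 1 library.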
